A study of Homo sapiens with 2 samples.

Results

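Single-strand domains of many Alu clusters are windows of the genome in which several Alu clusters of ADAR1 binding are listed and all listed clusters share 1 strand. The members were selected by position, class and strand: the genome was divided into windows of 100 kb, each cluster was put in the window of its midpoint, and a window was taken where it held 5 or more Alu clusters and every cluster in it, of either class, lay on the same strand. Adjoining windows of the same strand were joined. The rule gave 260 windows, which formed 250 domains on 24 chromosomes with 1471 Alu clusters, 7.28% of the 20200 Alu clusters, in a list of 23782 clusters. Because number, spacing and strand inside the domains were used to find them, those values are described below without a test.

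The clusters come from crosslinking and immunoprecipitation with sequencing (CLIP-seq) of ADAR1 in U87MG, an established human glioblastoma cell line, with no treatment but ultraviolet light named in the labels. The study made 2 libraries, labelled AB1 and AB2, from cells listed at passage 6. The cells received 254 nm ultraviolet light in 2 exposures of 800 mJ/cm2, and a mouse monoclonal antibody to ADAR1 recovered the RNA linked to it. The design text names different antibodies, but the labels list the same catalogue entry for AB1 and AB2. The list is shared by the libraries and holds no read number, so depth is unknown, there are no replicates and AB1 cannot be set against AB2. Markers of the cell line could not be checked, since the list gives no expression levels.

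ADAR1 is an adenosine deaminase that changes adenosine to inosine in double-stranded RNA. Alu repeats are short interspersed elements of primates, common in introns and at the ends of messenger RNAs. When copies in opposite orientation lie in 1 transcript, they can pair with each other, and such hairpins are the best known substrates of ADAR1 in human cells. The strand in the list was taken as that of the RNA and not the orientation of the repeat, which the list does not state. Whether members form such inverted pairs was therefore not analysed here. Genes, introns and sequences of the domains were not analysed here either, as the positions are on hg19 and the annotation at hand is on GRCh38. Positions count from 1.

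A caution applies to chromosome Y before any value is read. Its 2 domains held 14 members, and 11 of them overlapped a same-strand cluster on chromosome X at an offset of 50000 bases. Edges were identical for 3 of these 11. The tips of the sex chromosomes carry the same sequence, the pseudoautosomal region, so some RNA may be listed on both chromosomes. Without chromosome Y there were 248 domains and 1457 members.

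Most domains were small. Of the 250 domains, 241 were a single window, 8 joined 2 windows and 1 joined 3. Among the 260 windows, 153 held 5 Alu clusters, 70 held 6, 20 held 7 and 11 held 8. Another 4 windows held 9, while 1 held 10 and 1 held 12. The plus strand had 118 domains with 677 members, and the minus strand had 132 with 794. The domain windows made up 2.29% of the 11372 windows with any cluster.

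The domain with the most members lay on chromosome X (minus strand), from 31317727 to 31581346. It joined 3 windows and held 18 Alu clusters and no non-Alu cluster over 263.6 kb. Its members were 42 to 375 bases long, with a median of 170.5 bases, and covered 1.18% of the stretch. The median gap was 14.8 kb and the largest 35.2 kb. The members were thus strung along the whole stretch, with 2 close pairs among them. One pair lay 4 bases apart, at 31501214 to 31501318 and 31501323 to 31501364, and the other 402 bases apart, at 31435367 to 31435574 and 31435977 to 31436109.

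The single window with the most members was on the minus strand of chromosome 10, with 12 Alu clusters from 75214743 to 75292918. The lengths ran from 33 bases at the low end of the stretch to 221 bases for the next member. The 11 gaps, in genome order, were 658, 8070, 18313, 1723, 1995, 4571, 6913, 11694, 15905, 5889 and 484 bases. Close pairs stood at both ends of this stretch, and the widest gap followed the third member. Members covered 2.51% of the 78.2 kb. The same strand carried 8 more clusters before this domain and 4 after it without a break, 24 in all from 75046002 to 75459917. That run, all Alu, also holds a second domain of 5 members from 75046002 to 75096500.

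Chromosome 19 had a pair of the larger domains, both on the minus strand. The first held 15 members from 2520020 to 2692694, with a median gap of 2.70 kb, the shortest median among the 13 named domains. Its members formed groups parted by wide gaps. A group of 6 ran from 2520020 to 2541755, and a group of 4 lay from 2681220 to 2692694 after an empty 58.8 kb. The other held 13 members from 16504291 to 16669180, and 6 of these fell between 16650043 and 16669180, with 3 gaps under 1000 bases (695, 376 and 674 bases). On chromosome 17, by contrast, 14 minus-strand members from 704721 to 880331 had no gap under 2476 bases and a median gap of 10.3 kb.

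The remaining named domains had 9 to 13 members. Chromosome 9 held 13 on the minus strand from 127753443 to 127895218. Chromosome X held 13 on the plus strand from 96504866 to 96695502. Their median gaps were 6.66 and 12.2 kb. Chromosome 1 held 12 on the plus strand from 12030096 to 12193753 and 9 on the minus strand from 154009077 to 154098570. Chromosome 18 held 10 on the plus strand from 18900580 to 19072312, with the widest median gap of the 13, 17.1 kb. Chromosome 5 held 10 on the minus strand from 179530056 to 179691031, the only one of the 13 with a non-Alu cluster. Chromosome 17 held 9 more on the minus strand from 1003231 to 1085840, and chromosome 2 held 9 on the plus strand from 42804634 to 42893434. In the last, no gap was under 4478 or over 18890 bases.

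**Figure D1:**
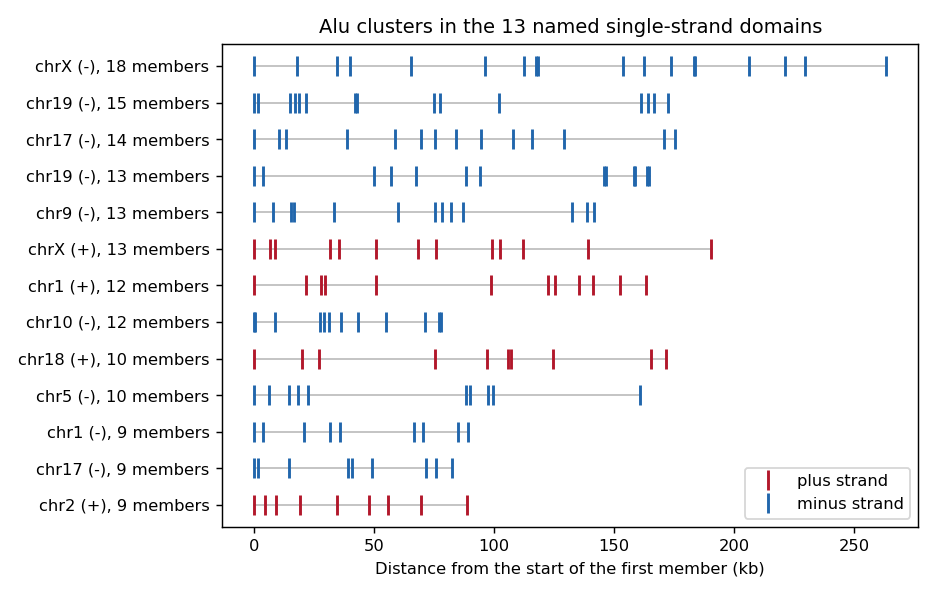
Positions of the member Alu clusters (vertical marks) in the 13 named domains, as distance in kb from the start of the first member. Colour gives the strand, and each grey line runs from the first to the last member. The chromosome X domain of 18 members spans 263.6 kb, and the chromosome 10 domain packs 12 into 78.2 kb.

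Within domains, members were usually several kilobases apart. The 1221 gaps between consecutive members had a median of 9452 bases (95% interval of the median 8672 to 10317), with quartiles at 4023 and 20366 bases. They ranged from 2 to 75315 bases. Gaps under 1000 bases were 86, or 7.04% (Wilson 95% interval 5.74 to 8.62%), and 34 of these were under 300 bases. They occurred in 72 of the 250 domains, so most domains had no close pair. Intervals cover counting error only, and since members enter by whole windows they are too narrow. In windows of 5 or more Alu clusters with both strands, gaps between consecutive Alu clusters of 1 strand had a median of 9430 bases (7949 to 11065, 636 gaps), and 8.65% (6.70 to 11.1%) were under 1000 bases. Both kinds of window were chosen for 5 or more Alu clusters per 100 kb, which bounds the gaps in domains. In windows with both strands that minimum counts both strands, while the gaps were taken within 1 strand. The medians are thus unlike measures, and the values are a description only.

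The members of single-window domains were spread over most of their window. From the first to the last member these domains spanned a median of 66.5 kb (quartiles 50.5 and 79.6 kb, 241 domains). Members covered a median of 1.55% of the stretch over all 250 domains. The most compact was on the plus strand of chromosome X, with 5 members in 15.9 kb from 133934616 to 133950534. Next came 6 members in 18.4 kb on the plus strand of chromosome 9, from 124929347 to 124947709, which had the highest coverage of any domain, 5.94%. The widest was on the plus strand of chromosome 19, where 6 members from 500709 to 599632 spanned 98.9 kb. In the median single-window domain, the largest gap took 47.9% of the span. These extremes were picked after their values were seen. The rule asks for 5 or more Alu clusters per 100 kb, which bounds spans and gaps, so the values are a description only.

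Member Alu clusters had a median length of 188 bases (183 to 192), with quartiles of 146 and 217 bases. The other 18729 Alu clusters had a median of 193 bases (192 to 194). Length was not used by the rule. The median was lower at each higher number of Alu clusters per window. It was 196 bases (194 to 197) for the only Alu cluster of a window, with or without non-Alu clusters beside it. In single-strand windows it was 194 (193 to 196) with 2, 192 (190 to 194) with 3 and 191 (188 to 193) with 4. Windows of 5 or more with both strands had a median of 185 bases (181 to 191), so the lower value was shared by crowded windows of either kind. The share of Alu clusters over 300 bases was 2.99% (2.24 to 3.99%) among members. It was 5.24% (4.66 to 5.88%) for the only Alu clusters of a window and 1.75% (upper limit 2.79%) in the windows with both strands. The intervals of members and of the only Alu clusters of a window do not overlap for length or for this share. Members enter by whole windows, so their intervals are too narrow, and non-overlap is not a test of a difference. The member interval for length does overlap those of single-strand windows with 3 and with 4. The same holds for the share, which was 4.07% (3.44 to 4.81%) with 3 and 3.04% (2.36 to 3.91%) with 4. No test was made, as the list has no replicates.

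**Figure D2:**
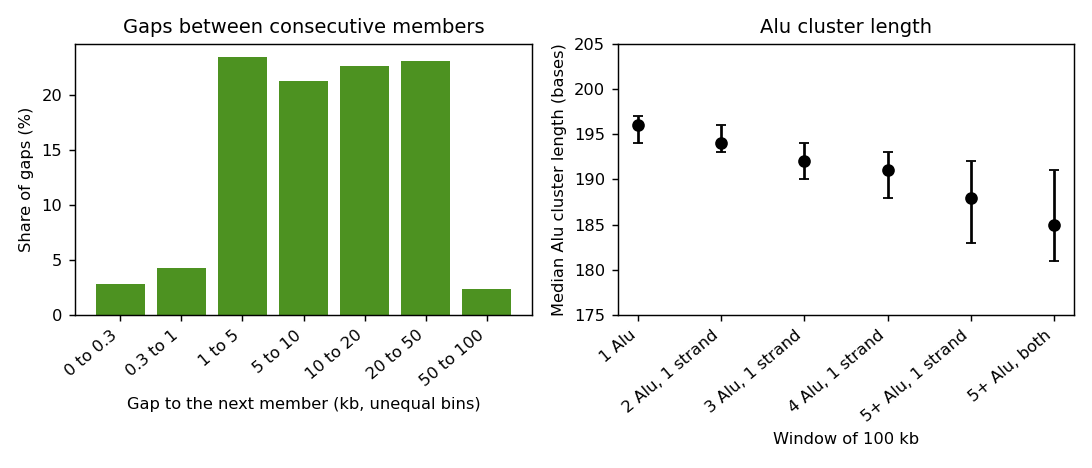
Left, share of the 1221 gaps between consecutive members in bins of unequal width (kb), where 7.04% lie under 1 kb. Right, median length in bases of Alu clusters by the number of Alu clusters and the strands in their window, with the 95% interval of the median as bars and an axis that does not start at 0. The medians go from 196 bases for the only Alu cluster of a window to 188 in the domains.

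The extremes of length were rare among members. The longest, 727 bases, lay at 21413968 to 21414694 of chromosome 16 (minus strand) and is also the longest Alu cluster of the list. The second longest member was 672 bases on the plus strand of chromosome 9 from 129437715 to 129438386, and the third was 390 bases on chromosome 10 (minus strand) from 51250911 to 51251300. The shortest was 30 bases, on the plus strand of chromosome 21 from 30462823 to 30462852. The median lengths of whole domains ran from 100 to 245 bases, with quartiles of 168 and 201 bases. Medians of several members vary less than single lengths, so the narrower range is not a result about the domains.

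Few domains contained non-Alu clusters. The 260 windows held 64, or 4.17% (3.28 to 5.29%) of their 1535 clusters, and 215 of the 250 domains had none. The share over the whole list was 15.1%, but taking windows with 5 or more Alu clusters lowers it by the rule. In windows with as many Alu clusters and both strands it was 6.01% (4.71 to 7.63%), and 27.5% (21.3 to 34.6%) of these windows had a non-Alu cluster, against 13.5% (9.84 to 18.1%) of the domain windows. It was 11.5% (8.97 to 14.7%) of single-strand windows with 4 Alu clusters, 11.9% (10.1 to 14.0%) with 3 and 268 of 2447 (9.78 to 12.3%) with 2, close to the domain windows. The rule itself favours the difference from windows with both strands, since each further cluster can break the single strand. Of the clusters in single-strand windows with 4 Alu clusters, non-Alu clusters made up 3.69% (2.94 to 4.61%). The 64 non-Alu clusters had a median length of 187 bases and lay a median of 5168 bases from the nearest member, 8 of them within 1000 bases.

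Of the 64 non-Alu clusters, 32 lay in 7 domains with 3 or more. The same share was not computed for other windows, so this is not a trait of the domains. On chromosome 16 (minus strand), 5 members from 70020939 to 70040261 went with 6 non-Alu clusters, 4 of which lay inside the stretch of the members. On chromosome 9 (minus strand), 5 members from 140420864 to 140456642 also went with 6, but only 1 lay among the members. The other chromosome 16 domain, with the longest Alu cluster, had 5 non-Alu clusters beside 5 members from 21413968 to 21486623. On the plus strand of chromosome 2, 5 went with 6 members from 33502890 to 33581657. Chromosome X had 4 beside 6 minus-strand members from 73441218 to 73498474. Chromosomes 7 and 19 had 3 each, the first beside 6 minus-strand members from 44011576 to 44051582, the second beside 5 plus-strand members from 41705563 to 41774655.

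The single strand was less common in windows with more Alu clusters, up to 7. All clusters were on 1 strand in 97.3% of the 5152 windows with 1 Alu cluster, 85.3% (83.9 to 86.5%) of those with 2, 77.1% (74.9 to 79.3%) with 3 and 70.8% (67.2 to 74.1%) with 4. Only 650 of the windows with 1 Alu cluster also held a non-Alu cluster. The rest held a single cluster and are single-strand by definition, so the 97.3% was largely fixed in advance. Above the threshold the share was 62.7% (56.5 to 68.5%) of 244 windows with 5, 56.9% (48.1 to 65.3%) of 123 with 6, and 20 of 40 windows with 7 (35.2 to 64.8%). In all, 260 of the 431 windows with 5 or more Alu clusters were single-strand, 60.3%. A window with more clusters has more occasions to hold both strands. At 8 and 9 Alu clusters, 11 of 17 and 4 of 5 windows were single-strand, with intervals too wide to set them apart from the lower numbers (41.3 to 82.7% and 37.6 to 96.4%).

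**Figure D3:**
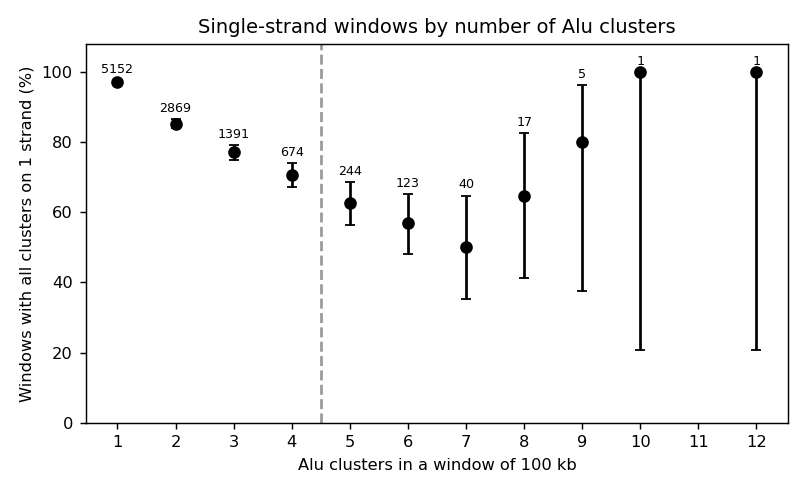
Percentage of 100 kb windows whose clusters all lie on 1 strand, by the number of Alu clusters in the window, with Wilson 95% intervals and the number of windows above each point. The dashed line marks the threshold of 5 Alu clusters. The share goes from 97.3% with 1 Alu cluster to 56.9% with 6, and 20 of 40 windows with 7 are single-strand. Most windows with 1 Alu cluster hold no other cluster and are single-strand by definition.

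Near the threshold the other measures had close values. The 153 single-strand windows with 5 Alu clusters had a median gap of 10162 bases, a median Alu cluster length of 189 bases and 4.73% non-Alu clusters. Just outside, the 477 single-strand windows with 4 Alu clusters had a median gap of 11728 bases, a median length of 191 bases and 3.69% non-Alu clusters. Another 74 windows with 405 Alu clusters missed the rule by 1 cluster on the other strand. Their Alu clusters had a median length of 185 bases, and 5.59% of their clusters were non-Alu.

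The strand of the clusters just outside a domain was not fixed by the rule, except that an adjoining window of the same strand with 5 or more Alu clusters would have been joined. Of the 365 nearest outside clusters within 100 kb, 283 were on the strand of the domain, 77.5% (73.0 to 81.5%). The background was 82.8%: 13704 of 16545 consecutive clusters of the list within 100 kb, not counting pairs inside 1 domain, were on the same strand. Outside clusters lay farther off (median 39.5 kb), and agreement falls with distance, so the values were set side by side by gap. Under 10 kb, 24 of 25 outside clusters had the domain strand, 96.0% (80.5 to 99.3%), against 93.7% of list pairs. From 10 to 20 kb it was 92.7% (82.7 to 97.1%) against 86.4%, from 20 to 50 kb 75.5% (67.8 to 81.9%) against 80.9%, and from 50 to 100 kb 70.5% (62.7 to 77.3%) against 70.5%. Beyond 100 kb it was 60.7% (52.3 to 68.6%) against 58.4%. The list value lay inside the interval of the domains at each distance. Pairs at a domain edge are among the list pairs.

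The same share was taken around windows with fewer Alu clusters, without a split by gap. The nearest outside cluster within 100 kb was on the same strand for 77.5% (75.8 to 79.1%) around single-strand windows with 2 Alu clusters, 79.5% (77.2 to 81.6%) with 3 and 77.0% (73.5 to 80.2%) with 4. The intervals of these 3 values and that of the domains overlap, and no difference was tested. The median distances were 54.9, 48.7 and 45.0 kb, against 39.5 kb for the domains. These windows were also not joined to adjoining ones, as the domains were. The shares therefore do not show whether the surroundings are alike. Outside Alu clusters had the domain strand in 78.8% (73.9 to 82.9%, 320 clusters) and outside non-Alu clusters in 68.9% (54.3 to 80.5%, 45 clusters), with overlapping intervals. Of the 131 domains with a cluster within 100 kb on both sides, 86 had the domain strand on both, 40 on 1 side and 5 on neither.

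**Figure D4:**
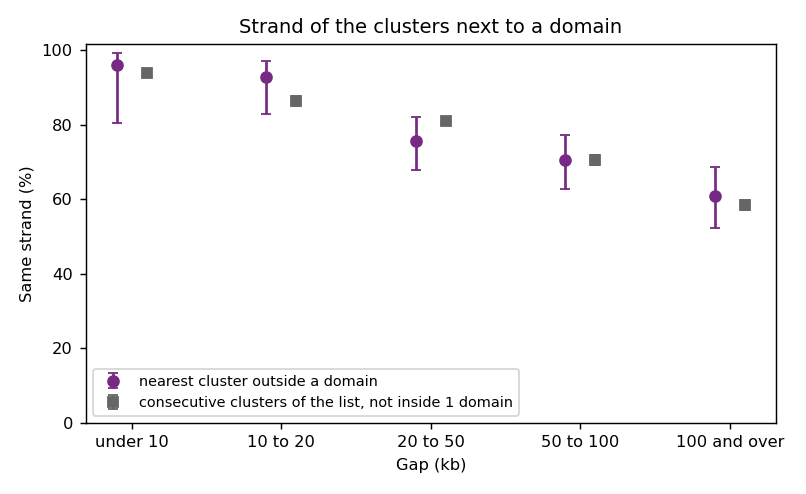
Percentage of clusters on the same strand, by gap in kb: circles, the nearest cluster outside a domain compared with the domain; squares, consecutive clusters of the list that are not inside 1 domain. Bars are Wilson 95% intervals. The domain values go from 96.0% under 10 kb to 60.7% at 100 kb and over, and the list values lie within their intervals.

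Many domains lay within longer single-strand runs, of which the rule makes them dense parts. A run is a series of consecutive clusters, of either class, with none on the other strand between them. The run around a domain had a median of 12 clusters (quartiles 8 and 16), and for 19 domains it ended at the domain itself on both sides. The stretch without any cluster of the other strand around a domain had a median of 572 kb (quartiles 349 and 960 kb, 247 domains with such a cluster on both sides). The 250 domains lay in 238 runs, and 11 runs held more than 1 domain. Of the 79 runs of 20 or more clusters in the list, 27 held a domain, against 238 of all 5331 runs. A run with more clusters has more occasions to meet the rule, so this is not a result about the domains.

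The longest run of the list, 51 clusters on the plus strand of chromosome 2 from 32505587 to 37004238, held 3 domains with 17 members among 38 Alu and 13 non-Alu clusters. The second longest of all 5331 runs, with or without a domain, was on the plus strand of chromosome X, where 43 clusters, all Alu, were spread over 11.3 Mb from 85445641 to 96793059 and the 13-member domain lay near its end. The 18-member domain of chromosome X belonged to a run of 41 Alu clusters from 30851052 to 34668022, so 43.9% of the run fell in the domain. On chromosome 17, a minus-strand run of 33 clusters in 967 kb, from 118711 to 1085840, held the domains of 14 and 9 members, 69.7% of its clusters. These runs thus include compact stretches, as on chromosome 17, and thinly filled ones, as the 11.3 Mb on chromosome X.

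Domains with at most 1 window between them occurred 13 times, 8 times on the same strand and 5 times on opposite strands. Adjoining windows of the same strand had been joined, so directly adjoining domains can only be on opposite strands. The split is thus shaped by the rule, and no background was computed for it. The only directly adjoining pair was on chromosome 16, with 5 minus-strand members from 2344817 to 2370303 and 8 plus-strand members from 2447323 to 2494461, parted by 77.0 kb. Chromosome 17 had 6 of the 13 pairs. There, 6 plus-strand members from 56904956 to 56999441 were followed by 6 minus-strand members from 57119438 to 57199959. A further switch on chromosome 17 went from 6 plus-strand members at 66314016 to 66388818 to 6 minus-strand members at 66542783 to 66587566. On chromosome 5, 5 plus-strand members from 179153450 to 179188117 were followed by minus-strand domains of 5 and 10 members.

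The chromosomes differed in how many of their Alu clusters lay in domains. Chromosome 17 had the most domains, 31, with 188 of its 1169 Alu clusters, 16.1% (14.1 to 18.3%). Chromosome 1 had 29 domains and 8.89% (7.69 to 10.3%) of its Alu clusters in them, and chromosome 19 had 21 and 13.9% (11.8 to 16.3%). These 3 chromosomes held 32.4% of the domains and 19.6% of all Alu clusters. Chromosome 4 was lowest, with 12 of 899 Alu clusters in 2 domains, 1.33% (0.765 to 2.32%). Chromosome 3 had 59 of its 1357 Alu clusters in domains, 4.35% (3.39 to 5.57%). Chromosome length, gene density, Alu content and the density of clusters along the chromosome, on which the rule depends, were not taken into account. The highest share, 20.6% (12.7 to 31.6%) on chromosome Y, rests on 14 of 68 Alu clusters, most with a counterpart on chromosome X. Chromosome X itself had 10.9% (8.98 to 13.3%).

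**Figure D5:**
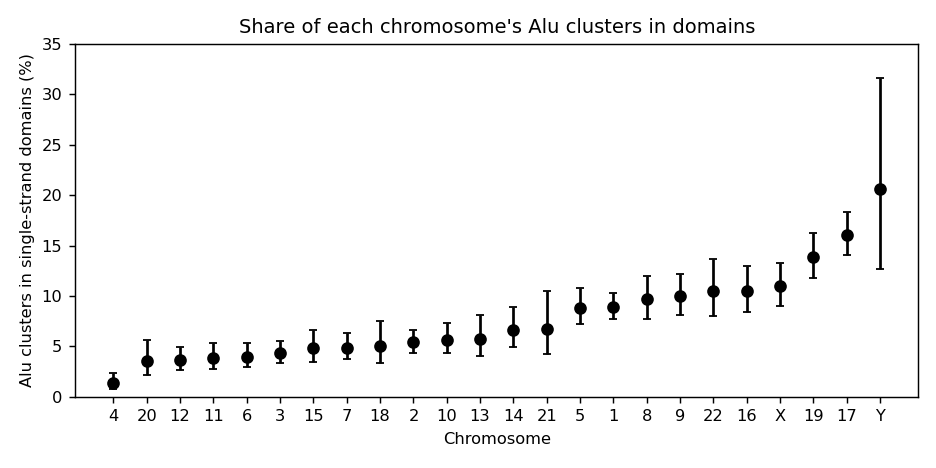
Share in percent of each chromosome's Alu clusters that lie in single-strand domains, with Wilson 95% intervals, ordered by the share. Chromosome 4 is lowest with 1.33% and chromosome 17 reaches 16.1%, while the chromosome Y value rests on 68 Alu clusters.

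The domains depend on where the windows begin. With windows shifted by 50 kb there were 246 domains with 1446 members, but 540 clusters were members under both placements, 36.7% of the members here and 37.3% of those in the shifted windows. Single domains named by position are therefore tied to this placement.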

How the data were processed

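Clusters were read from the list the authors deposited, which gives positions, class and strand and no count, score or p-value. Per the submitters' processing notes, cutadapt 1.1 and Novoalign 2.08.22 were used with build hg19. The cluster caller, the joining of the libraries and the Alu rule are not stated in the labels or the file; the treatment of reads that match several Alu copies decides which copies are listed. Starts were read as counted from 0. Windows, gaps, outside clusters and runs were computed in Python (Python 3.11.15; scipy 1.17.1, pandas 2.3.3, numpy 2.4.6), and the domain search was tested on simulated data. Shares have Wilson 95% intervals and medians binomial 95% intervals. No test was made, for lack of replicates. Named are the 12 domains with the most members with ties (13) and all joined domains. The members and lists were chosen with earlier results of these data known. Planned gene lists, introns and Alu orientation were not analysed here.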

Additional observations from a re-analysis of the deposited data

How the results depend on the processing

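Of 41 alternative values, 28 stayed within 1.5 times the number, or within the 95% interval, of the value reported; 7 of the 41 were chosen after the data were seen. The number of domains (250) and members (1471) followed the rule's own settings. Windows of 50 kb gave 79 domains and 427 members, and windows of 200 kb gave 502 and 3256. A minimum of 4 Alu clusters gave 684 domains and 3379 members, and a minimum of 6 gave 105 and 706. Keeping clusters of the median length (192 bases) or longer left 23 domains and 118 members, with a median gap of 11520 bases and a median length of 218 bases, since fewer and only longer clusters enter. The share of outside clusters on the domain strand was 82.2% within 50 kb, as nearer clusters agree more often. Shifted windows, merging within 50 bases, leaving out chromosome Y and, for the numbers, allowing 1 cluster on the other strand kept each value within these ranges. No paired analysis was possible because the list does not separate the 2 libraries, so none could be left out either. Alternatives on genes, introns and Alu orientation were not run. Without read numbers, places without a cluster cannot be judged.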

Other observations

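In the 74 windows that missed the rule by 1 cluster on the other strand, that cluster was the first or last of the window in 47 cases and lay between others in 27. No background was computed for this split. The cluster on the other strand was an Alu cluster in 68 cases and non-Alu in 6, and in 5 cases it overlapped a cluster of the main strand. Of the 7 members in the first chromosome Y domain, 6 overlapped a cluster 50000 bases further on chromosome X, and 5 of these counterparts were members of a chromosome X domain. In the second, 5 of 7 overlapped one, and 0 of the counterparts were members.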
